A study of Ovis aries with 10 samples.

Results

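Circular RNAs (circRNAs) are closed transcripts in which a downstream splice site is joined back to an upstream one. The sheep muscle libraries listed 279 circRNAs from genes named for the centrosome, the cilium, a cytoskeletal motor or, for CCDC, only a coiled coil. That was 3.2% of the 8721 circRNAs in all. They were chosen by the name of the host gene alone, taking symbols that begin with CEP, KIF, DYNC, DNAH, CCDC, IFT, BBS, CLASP or MYO followed by a number where the family uses one, together with PCM1, PCNT and CKAP5. The 279 circRNAs came from 84 host genes and held 10595 junction reads, 2.38% of the total. None of the 29 circRNAs deep enough for the main test, and none of the 27 host genes tested, passed it between sham-operated and ovariectomized sheep. Outside that test, 1 circRNA of PCNT was listed in all 5 sham libraries and in no ovariectomized library. Groups without overlap and with lower values after ovariectomy occurred in 0.595% of all circRNAs listed in at least 5 libraries. This circRNA reached 5 libraries through the sham group alone, so its lack of overlap is no evidence of a difference.

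The centrosome is the main microtubule-organizing centre of a dividing cell, and its mother centriole can act as the base of a primary cilium. Pericentrin (PCNT) is a scaffold of the material around the centrioles, PCM1 builds the centriolar satellites, and many CEP proteins act in centriole assembly or microtubule anchoring. Kinesins and dyneins carry cargo along microtubules, the IFT proteins form the trains that move along the cilium, and the BBS proteins form a cargo adaptor of that transport. In skeletal muscle, fusion of myoblasts is accompanied by a move of pericentrin, PCM1 and microtubule nucleation from the centrosome to the surface of the nuclei. The MYO genes of the rule are unconventional myosins, which run on actin and not on microtubules, and the CCDC name states only that a protein has a coiled coil.

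The groups were 5 libraries from small-tailed Han ewes after sham surgery and 5 after removal of the ovaries, in a study of how estrogen affects female muscle. Longissimus dorsi, a muscle of the back, is the labelled tissue. Elsewhere the labels speak of primary myoblasts and of cultures given estradiol, with no dose attached to any sample, so whole muscle and cultured cells cannot be told apart from them. They give no age, and nothing in them ties a library to its own ewe, so a p-value here reflects spread among libraries that may be technical.

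A junction read crosses the back-splice of a circRNA. Libraries held 35731 to 67061 of them, and no count under 2 is listed in the files. Where a library has no entry for a circRNA, the text says that it was not listed, and the value used was 0. Normalized junction reads are counts divided by the relative library size (0.768 to 1.61), with no correction for length, since each circRNA has 1 junction. Of the 21 muscle fiber markers, 17 hosted circRNAs, among them TTN with 12696 reads, and none of the 18 proliferation markers did. Of the 13 myoblast and satellite cell markers, MET (907 reads), DES and NCAM1 hosted circRNAs, while PAX7, MYF5, MYOD1 and MYOG did not. CFAP44 alone among the 13 markers of ciliated epithelium hosted a circRNA, with 8 reads in 1 ovariectomized library.

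The members' share of junction reads was 2.18, 2.68, 2.09, 2.39 and 2.12% in sham replicates 1 to 5 and 2.52, 2.46, 2.5, 2.5 and 2.42% in ovariectomized replicates 1 to 5. The means were 2.29% ± 0.244 and 2.48% ± 0.0411 (SD, n = 5 each), the groups overlap through sham replicate 2, and no test was run. Without the most abundant circRNA of the table, which comes from SENP6, the same means were 2.56% and 2.54%. After scaling of the libraries, the summed reads were 1058 ± 78.2 and 1030.3 ± 29.2 normalized junction reads. Between 79 and 110 of the 279 circRNAs were listed in a library.

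CEP genes held nearly as many reads as all the other families together. Their 22 hosts gave 79 circRNAs and 5200 reads, 49.1% of the members' reads. The CCDC genes followed with 22 hosts, 63 circRNAs and 17.8% of reads, then the kinesins with 9 hosts, 41 circRNAs and 12.9%, and the unconventional myosins with 10 hosts, 34 circRNAs and 8.7%. Cytoplasmic dynein genes gave 16 circRNAs (2.95% of reads), CLASP1 and CLASP2 gave 12 (2.7%), the IFT genes 13 (1.93%) and the BBS genes 8 (1.1%). PCM1 gave 6 circRNAs, PCNT 4, the axonemal dyneins DNAH5 and DNAH11 1 each, and CKAP5 1. Reads were concentrated in few circRNAs. The 10 most abundant held 39.9% of the members' reads, and 149 of the 279 had fewer than 10 reads over all libraries.

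The structure of these circRNAs is described beside that of the other 8442, without a test. Exonic circRNAs made up 268 (96.1%), against 90.7% of the others, and the remaining 11 were intronic. The median spliced length of the exonic ones was 303 bp against 293 bp, and the median genomic span was 8504 bp against 7676 bp. Of the exonic circRNAs, 52 listed 1 exon, 104 listed 2, 70 listed 3 and 42 listed more, up to 6. Only 25 (8.96%) were listed in all 10 libraries, against 9.25% of the others, and 113 (40.5%) were listed in 1 library, against 37.4%. Listing in 1 group only occurred in both directions, with 74 circRNAs listed only in sham and 66 only in ovariectomized libraries, against 1898 and 1976 of the others. The 113 listed in 1 library are among these 74 and 66 by construction.

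Hosts often gave several circRNAs that share a splice site. A host gave 3.32 circRNAs on average, against 2.45 for the other hosts, and 48 of the 84 gave more than 1. Those 48 hosts held 243 circRNAs, of which 159 shared a start or an end with another circRNA of the host. In these 48, the most abundant circRNA held a median of 70.3% of the host's reads, with a range from 19.1% in CEP112 to 99.5% in CEP95. MYO9A had the most circRNAs (15), followed by CEP112 (14), KIF27 (11) and KIF13B (9), while CLASP2, CCDC171 and CCDC18 had 8 each.

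MYO9A, a myosin that carries a RhoGAP domain, lies on the minus strand of chromosome 7, and KIF27, a kinesin related to the Hedgehog regulator Costal-2 of flies, on the plus strand of chromosome 2. In MYO9A, novel_circ_0008010 (chr7:18830325-18845963, 203 reads) and novel_circ_0008011 (chr7:18830325-18855231, 166 reads) end at the same downstream splice site. In KIF27, novel_circ_0003616 (chr2:35811408-35811792, a single exon of 385 bp, 164 reads), novel_circ_0003617 (chr2:35811408-35829582, 107 reads) and novel_circ_0003618 (chr2:35811408-35837295, 92 reads) begin at the same upstream site. Coordinates are those of the files, whose genome build is not given in the sources used here.

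**Figure D1:**
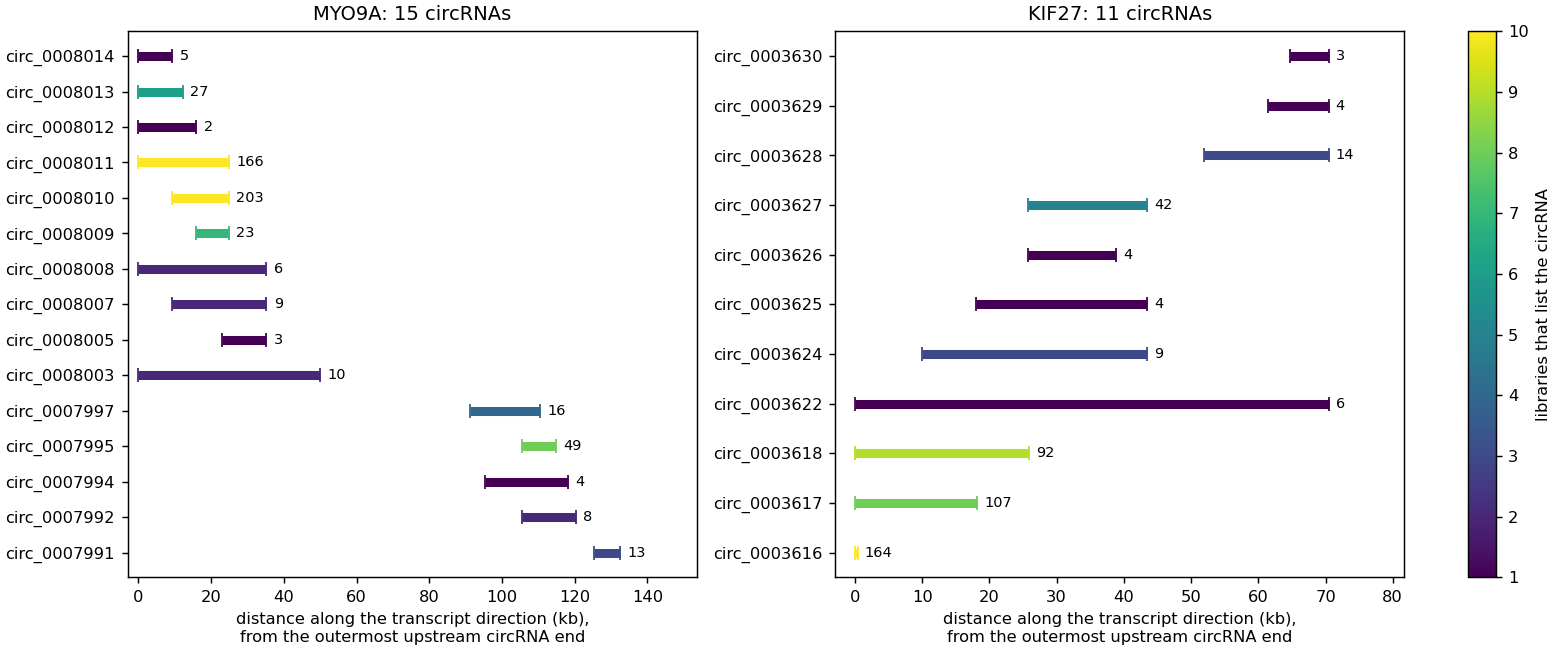
CircRNAs of MYO9A (left) and KIF27 (right), each drawn as a bar from its first to its last base; the x axis is the distance in kb along the transcript from the most upstream circRNA end, color is the number of libraries that list it, and the number beside a bar is its junction reads over 10 libraries. The circRNAs with 203 and 166 reads in MYO9A share their downstream end, and those with 164, 107 and 92 reads in KIF27 share their upstream end.

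Within these hosts the mixture of circRNAs varied from library to library. The share of MYO9A reads in novel_circ_0008010 was 25, 11.6, 30.9, 22.6 and 28.1% in the sham libraries and 53.7, 34.6, 47.4, 18.8 and 65.3% in the ovariectomized ones. It was above the highest sham value in 4 of 5 ovariectomized libraries, and replicate 4 fell inside the sham range. The KIF27 share in novel_circ_0003618 was 36.4, 21.7, 14.0, 36.8 and 41.2% after sham surgery and 20.8, 18.5, 21.4, 0 and 16.7% after ovariectomy. All ovariectomized values lay below 4 of the 5 sham values, with sham replicate 3 the lowest of its group. These shares rest on few reads per library and were not tested.

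Of the 279 circRNAs, 29 from 23 hosts passed the filter for the main test, limma voom with Benjamini-Hochberg adjustment over all 738 circRNAs that passed. Log2 fold changes are of ovariectomized over sham libraries. None of the 29 was called at an adjusted p of 0.05, nor was any of the 738 (0.0%). At an unadjusted p under 0.05 there was 1, a lower one, against 5.69% of all circRNAs tested (4.47% lower and 1.22% higher). Fitted values were higher after ovariectomy for 13 and lower for 16, and their median log2 fold change was -0.1. Over all tested, 351 were higher and 387 lower, with a median of -0.04. The lowest adjusted p of the 29 was 0.781.

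Precision set apart 2 kinds of circRNAs among the 29. The 20 listed in all libraries had a median standard error of 0.4 on the log2 scale and at most 0.68. The 9 that missed at least 1 library had a median standard error of 1.07 and at least 0.83, and the widest fold changes, from -1.77 to 1.79, came from them. The coefficient of variation over the 10 libraries ran from 19.3 to 85.5%, with a median of 46.4%.

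**Figure D2:**
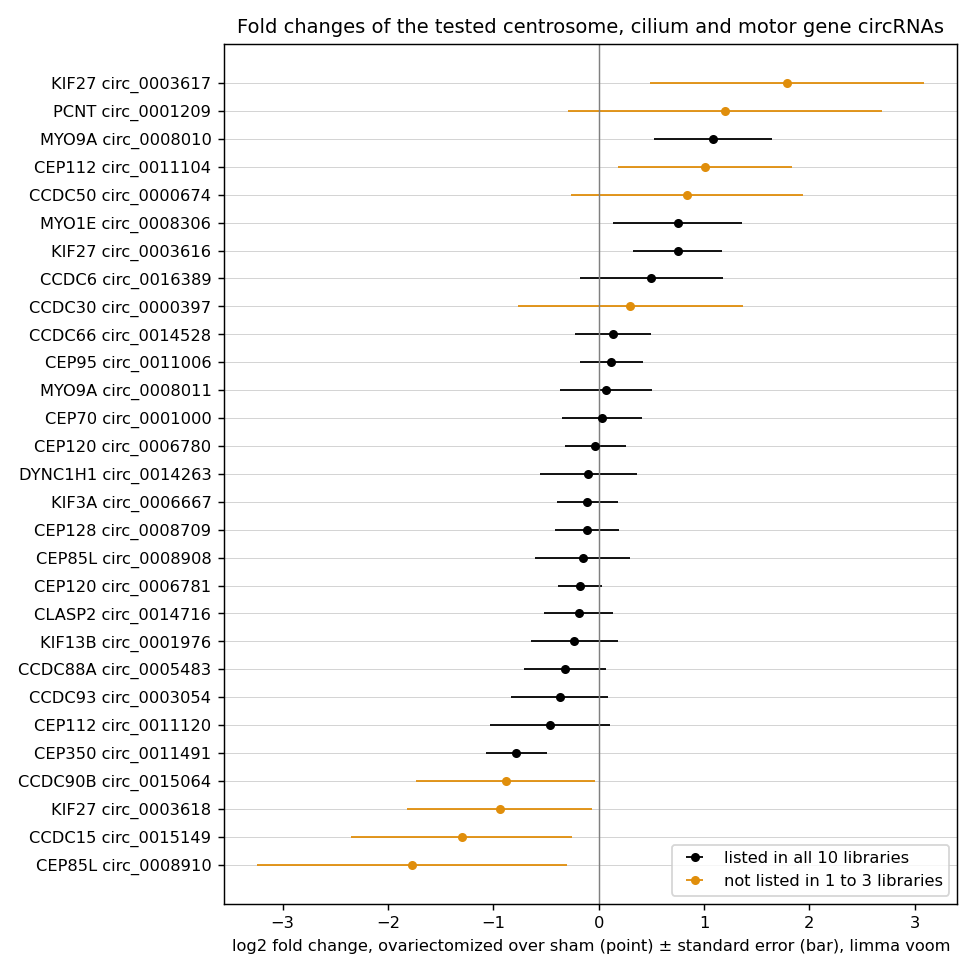
Log2 fold change (x axis, ovariectomized over sham, limma voom) of the 29 tested circRNAs, 1 per line, with bars of ± 1 standard error; black marks those listed in all 10 libraries and orange those not listed in 1 to 3. The orange estimates run from -1.77 to 1.79 with the longest bars, and CEP350 novel_circ_0011491 at -0.78 ± 0.29 is the black point farthest below 0.

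Among the centrosomal genes, CEP70, whose protein binds gamma-tubulin, had the most abundant circRNA. Its novel_circ_0001000 (chr1:251188459-251195101, 4 exons, 521 bp) had 138, 79.4, 86.2, 73.8 and 91.9 normalized junction reads in the sham libraries and 166, 134, 129.9, 33.8 and 78.7 in the ovariectomized ones. The ovariectomized libraries held both its highest and its lowest value, and the means were 93.9 ± 25.6 and 109 ± 52.3 (SD, n = 5 each; log2 fold change 0.03 ± 0.38, standard error).

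CEP120, needed for centriole elongation, came next with novel_circ_0006781 (chr5:28060613-28067568, 854 reads). It had 85.9, 98.7, 117, 67.9 and 79.8 normalized reads after sham surgery and 92.0, 76.3, 68.6, 65.0 and 89.9 after ovariectomy. Its groups overlapped, and its log2 fold change of -0.18 ± 0.21 had the smallest standard error of the 29. A shorter CEP120 circRNA with the same upstream end, novel_circ_0006780, had means of 21.8 ± 4.33 and 22.0 ± 5.6. These 2 circRNAs held nearly all of the host's 1092 reads.

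CEP350, which anchors microtubules at the centrosome, gave the lowest unadjusted p of the 29. Its novel_circ_0011491 (chr12:60584808-60590429, 4 exons, 405 bp) had 48.2, 46.9, 58.2, 29.5 and 32.3 normalized reads in the sham libraries and 21.7, 33.6, 22.2, 30.3 and 17.4 in the ovariectomized ones. Sham replicates 1 to 3 lay above every ovariectomized library, whereas replicates 4 and 5 lay among them. The means were 43.0 ± 11.9 and 25 ± 6.7, and the log2 fold change of -0.78 ± 0.29 had an unadjusted p of 0.0157 and a Benjamini-Hochberg adjusted p of 0.781 in limma voom.

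Other centrosomal circRNAs of high level had estimates near 0. The most abundant circRNAs of CEP85L (novel_circ_0008908, 504 reads), CEP95 (novel_circ_0011006, 384 reads) and CEP128 (novel_circ_0008709, 209 reads), the last encoding a subdistal appendage protein, had log2 fold changes of -0.15 ± 0.45, 0.12 ± 0.3 and -0.11 ± 0.3. CEP85L novel_circ_0008908 spread widely in both groups, from 18.2 to 74.8 in sham and from 17.3 to 72.0 in ovariectomized libraries. CEP85L also had a rarer circRNA, novel_circ_0008910, that was not listed in 3 libraries and whose estimate of -1.77 ± 1.47 was the lowest of all, although its means were 11.5 ± 8.3 and 9.84 ± 10.8. Without ovariectomized replicate 5, 1 of those 3 libraries, the estimate was -0.39 ± 1.25.

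CEP112 spread its 781 reads over 14 circRNAs. The largest, novel_circ_0011120, had 6 exons and means of 17.8 ± 9.82 and 10.7 ± 7.38 normalized reads (log2 fold change -0.46 ± 0.57). For novel_circ_0011104 the estimate of 1.01 ± 0.83 depended on sham replicate 5, in which it was not listed. Without that library the estimate was -0.28 ± 0.35, and the group means with all libraries were 14.2 ± 8.9 and 15.1 ± 4.91.

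Microtubule plus-end and satellite genes were lower in reads. CLASP2, a plus-end tracking protein, had novel_circ_0014716 with 200 reads and means of 21.7 ± 7.8 and 17.9 ± 3.56 (log2 fold change -0.19 ± 0.33). PCM1 novel_circ_0016733 was listed in all libraries with means of 7.84 ± 2.54 and 9.94 ± 5.74 and lay under the filter. The single circRNA of CKAP5, the microtubule polymerase, had 15 reads in 3 libraries.

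**Figure D3:**
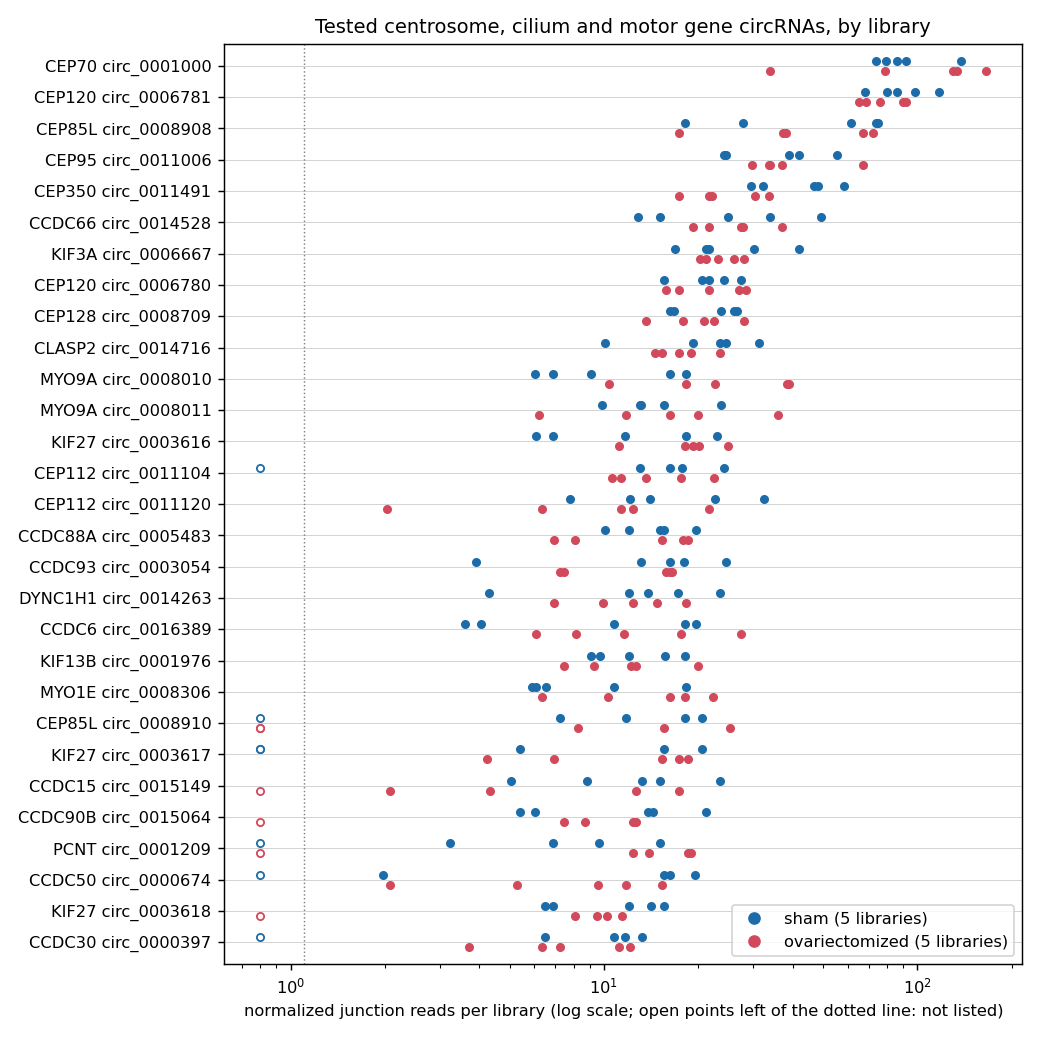
Normalized junction reads (x axis, log scale) of the 29 tested circRNAs in each of 10 libraries, blue for sham and red for ovariectomized, ordered by mean level; open points left of the dotted line mark libraries that do not list the circRNA. Levels fall from about 100 for CEP70 and CEP120 to near 10, and blue and red points overlap on every line.

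Of the kinesins, KIF3A, a subunit of the kinesin-2 motor that drives anterograde transport in cilia, had the most abundant circRNA. Its novel_circ_0006667 (chr5:19410950-19427504, 253 reads) had 16.9, 30.1, 42.0, 21.7 and 21.2 normalized reads in sham and 27.9, 20.3, 23.2, 26.0 and 21.1 in ovariectomized libraries. The values overlapped throughout, with a log2 fold change of -0.11 ± 0.29.

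KIF27 had 3 circRNAs in the test that begin at 1 splice site, with estimates of both signs, the negative one resting largely on 1 library. The single-exon novel_circ_0003616 had 11.7, 22.9, 18.3, 6.89 and 6.06 normalized reads in sham and 24.8, 11.2, 20.1, 18.2 and 19.2 in ovariectomized libraries. Its values were 13.2 ± 7.29 against 18.7 ± 4.9, a log2 fold change of 0.75 ± 0.42 with overlapping groups (limma voom, Benjamini-Hochberg adjusted p = 0.781). The 2-exon novel_circ_0003617 was not listed in sham replicates 4 and 5 and was estimated at 1.79 ± 1.30, and novel_circ_0003618 was not listed in ovariectomized replicate 4 and was estimated at -0.94 ± 0.88. Without that library the latter estimate was -0.06 ± 0.49, and without ovariectomized replicate 5 it was -1.52 ± 1.18. For novel_circ_0003616 the estimate was 0.45 ± 0.42 without sham replicate 5. Whether these circRNAs differ from each other in their response was not tested.

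Dynein and cilium genes gave few reads. The heavy chain of cytoplasmic dynein, DYNC1H1, hosted 1 circRNA, novel_circ_0014263 (chr18:64491206-64493871, 131 reads), with means of 14.1 ± 7.01 and 12.5 ± 4.38 normalized reads and a log2 fold change of -0.1 ± 0.46. The heavy chain of the ciliary dynein, DYNC2H1, hosted 7 circRNAs with 31 reads in all. DNAH11 and DNAH5, heavy chains of the motile cilium's outer arms, had 12 and 3 reads. No IFT or BBS circRNA passed the filter. The most abundant were novel_circ_0004069 of IFT74 (90 reads, 9 libraries), described with the circRNAs under the filter, and novel_circ_0002720 of BBS5 (42 reads, 7 libraries).

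In the CCDC family 8 circRNAs were tested, 4 with a higher and 4 with a lower estimate. CCDC66, a protein of centriolar satellites and cilia, had the most abundant, novel_circ_0014528 (chr19:44526393-44532925, 269 reads). It had 33.8, 49.3, 24.8, 12.8 and 15.1 normalized reads in sham and 21.7, 19.3, 37.0, 27.7 and 27.3 in ovariectomized libraries, so that both ends of its range were sham libraries (log2 fold change 0.14 ± 0.36). The lower estimates with the smallest p were novel_circ_0015149 of CCDC15 at -1.30 ± 1.05 and novel_circ_0015064 of CCDC90B, a mitochondrial protein, at -0.88 ± 0.85. Both were not listed in ovariectomized replicate 2, and the limma voom Benjamini-Hochberg adjusted p was 0.847 for each. Without that library the estimates were -0.69 ± 0.68 and -0.30 ± 0.51.

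All 3 tested circRNAs of unconventional myosins had estimates above 0. MYO9A novel_circ_0008010 (5 exons, 483 bp) had 9.11, 6.02, 18.3, 6.89 and 16.2 normalized reads in sham and 22.7, 18.3, 39.1, 10.4 and 38.4 in ovariectomized libraries. Ovariectomized replicates 1, 3 and 5 were above every sham library, and replicate 4 lay within the sham range. The means of 11.3 ± 5.59 and 25.8 ± 12.6 gave a log2 fold change of 1.09 ± 0.56 (unadjusted p = 0.0722, Benjamini-Hochberg adjusted p = 0.781, limma voom).

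Its neighbor novel_circ_0008011, with the same downstream end, was at 15.1 ± 5.25 and 18 ± 11.2 (0.07 ± 0.44). The third, novel_circ_0008306 of the membrane-binding class I myosin MYO1E, is classed as intronic in the files and spans 89366 bp. Its means were 9.52 ± 5.32 and 14.7 ± 6.36 (0.75 ± 0.61).

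Summing the junction reads of each host brought 27 of the 84 hosts over the filter, with 12 higher and 15 lower estimates and a median log2 fold change of -0.11. Over all 751 hosts tested, 349 were higher and 402 lower, with a median of -0.05. None of the 27 was called (0.0% of all hosts), none reached an unadjusted p under 0.05 (5.73% of all hosts), and the lowest limma Benjamini-Hochberg adjusted p was 0.762.

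The lower hosts with the smallest p were CEP350 (44.1 ± 12.6 against 30 ± 6.35, log2 fold change -0.50 ± 0.28), KIF3A (42.8 ± 7.59 against 31.3 ± 6.89, -0.46 ± 0.27) and CCDC15 (-1.46 ± 1.01). The higher ones were KIF27 (39.5 ± 13.9 against 48.6 ± 6.28, 0.40 ± 0.28), MYO9A (47.1 ± 12.9 against 58.4 ± 14.7, 0.32 ± 0.26) and MYO1E (0.50 ± 0.54). Leaving out 1 library moved several of these by over 1.5 times: CCDC15 to -0.81 without ovariectomized replicate 2, KIF3A to -0.30 without the same library, CEP350 to -0.32 without sham replicate 3, and KIF27 to 0.16 and MYO9A to 0.19 without sham replicate 4. MYO9A was at 0.20 without ovariectomized replicate 3. MYO1E was at 0.84 without sham replicate 3, 0.77 without ovariectomized replicate 3 and 0.27 without ovariectomized replicate 5. For MYO9A the host sum stood closer to 0 than its novel_circ_0008010. The hosts with the most reads, CEP70 (1128), CEP120 (1092), CEP112 (781), CEP85L (648) and MYO9A (544), had log2 fold changes between -0.31 and 0.32.

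Under the filter, 45 circRNAs listed in at least 5 libraries were tested by a two-sided exact permutation test over all relabellings of the libraries, whose smallest p is 0.00794. Of these, 6 had an unadjusted p under 0.05, beside 5.17% of the 1952 circRNAs tested in this way, and none passed adjustment (lowest adjusted p 0.896; 0.0% of all). The remaining 205 were listed in fewer than 5 libraries and were not tested here.

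PCNT novel_circ_0001213 (chr1:266833030-266834856, 2 exons, 383 bp) was the only one of the 74 circRNAs listed in at least 5 libraries whose groups did not overlap. The sham libraries had 8, 5, 3, 11 and 8 junction reads, or 10.4, 6.02, 3.23, 10.8 and 8.08 normalized, and no ovariectomized library listed it. Non-overlapping groups with the lower values after ovariectomy occurred in 0.595% of all circRNAs listed in at least 5 libraries, and with the higher values in 0.297%.

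It reached 5 libraries through the sham group alone. A circRNA with exactly 5 listed libraries, all in 1 group, cannot overlap and must take the smallest p of the exact permutation test, 0.00794 (adjusted p = 0.896), so neither is evidence of a difference. The same entry through the high group holds for the next fit. With all circRNAs of at least 2 reads in at least 5 libraries in the fit, limma voom gave a log2 fold change of -4.09 ± 0.95 and a Benjamini-Hochberg adjusted p of 0.0153, where 0.149% of 2690 circRNAs were called, and this call is given as a description. With no filter beyond 1 read, the limma voom Benjamini-Hochberg adjusted p was 6.56e-06, and 0.161% of all circRNAs were called. The circRNA is singled out here for its listing in 1 group only. This p is therefore also given as a description and not as evidence of a difference. In the authors' deposited table the p was 2.93e-05 and the adjusted p 0.128. A fitted fold change against a group without listed reads depends on the small count added before taking logs and is no bound.

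A second PCNT circRNA did not follow it. The single-exon novel_circ_0001209 (chr1:266798236-266804797, 171 bp) had 0, 9.62, 3.23, 6.89 and 15.1 normalized reads in sham and 12.4, 0, 19.0, 13.9 and 18.6 in ovariectomized libraries. Its groups overlapped, with means of 6.98 ± 5.84 and 12.8 ± 7.7 and a log2 fold change of 1.20 ± 1.49. In ovariectomized replicate 2 neither circRNA was listed. The difference between the changes of these 2 circRNAs was not tested.

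IFT74, a core subunit of the IFT-B train, had novel_circ_0004069 (chr2:95748050-95775800, 5 exons, 490 bp) at 15.6, 22.9, 12.9, 5.91 and 12.1 normalized reads in sham and 0, 6.1, 6.33, 5.2 and 6.82 in ovariectomized libraries. Every sham library but replicate 4 was above every ovariectomized one, and the means were 13.9 ± 6.15 and 4.89 ± 2.8 (exact permutation p = 0.0317, adjusted p = 0.896). IFT80 of the same train went the other way in its means, with 3.41 ± 2.28 and 8.13 ± 3.88 for novel_circ_0000847 (exact permutation p = 0.0476, adjusted p = 0.896). Higher means after ovariectomy, at the same adjusted p, were also those of novel_circ_0001717 of CCDC18 (3.3 ± 3.47 and 9.52 ± 4.84), novel_circ_0000399 of CCDC30 (1.52 ± 1.54 and 6.04 ± 3.34) and the intronic novel_circ_0004501 of KIF21A (0.431 ± 0.964 and 5.76 ± 4.54). The KIF21A circRNA was listed in 5 libraries, and its only sham entry was 2 reads in replicate 3. It thus met the 5-library rule mostly through the group where it is high, which limits what its exact p can show.

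The 21 hosts under the filter with reads in at least 5 libraries were tested in the same way, a step added after the circRNA results were seen. Of them, 4 had an unadjusted p under 0.05 (4.23% of 1039 hosts) and none passed adjustment. The reads of the 6 circRNAs of IFT74 summed to 15.6, 22.9, 28.0, 7.87 and 20.2 normalized reads in sham and 4.13, 6.1, 6.33, 5.2 and 6.82 in ovariectomized libraries. The groups did not overlap under any of the 3 library scalings used, and the exact permutation test gave p = 0.00794 (adjusted p = 0.589). This separation rests on few reads. The sum in sham replicate 4 was 8 reads, 75% of them in novel_circ_0004069, which by itself lay within the ovariectomized range there. Of the 6 circRNAs, 4 were listed in 1 library only.

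Groups without overlap and with lower values after ovariectomy were found in 2 of 48 of these gene hosts with reads in at least 5 libraries, beside 0.67% of all such hosts. The second was CCDC62 (4.98 ± 1.87 and 0.927 ± 1.29), whose groups overlapped under both other scalings. Its lowest sham and highest ovariectomized values were both 2.6 after rounding. CCDC62 had reads in all 5 sham libraries, but only 2 and 3 reads in ovariectomized replicates 2 and 4. It thus met the 5-library rule through the group where it is high, and its lack of overlap is given as a description. None of the 48 had higher values without overlap (0.503% of all hosts). BBS9, a BBSome subunit, had means of 4.65 ± 1.75 and 8.47 ± 2.68 (exact permutation p = 0.0317, adjusted p = 0.916). In bulk samples, fewer cells that hold a circRNA and fewer copies per cell cannot be told apart.

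**Figure D4:**
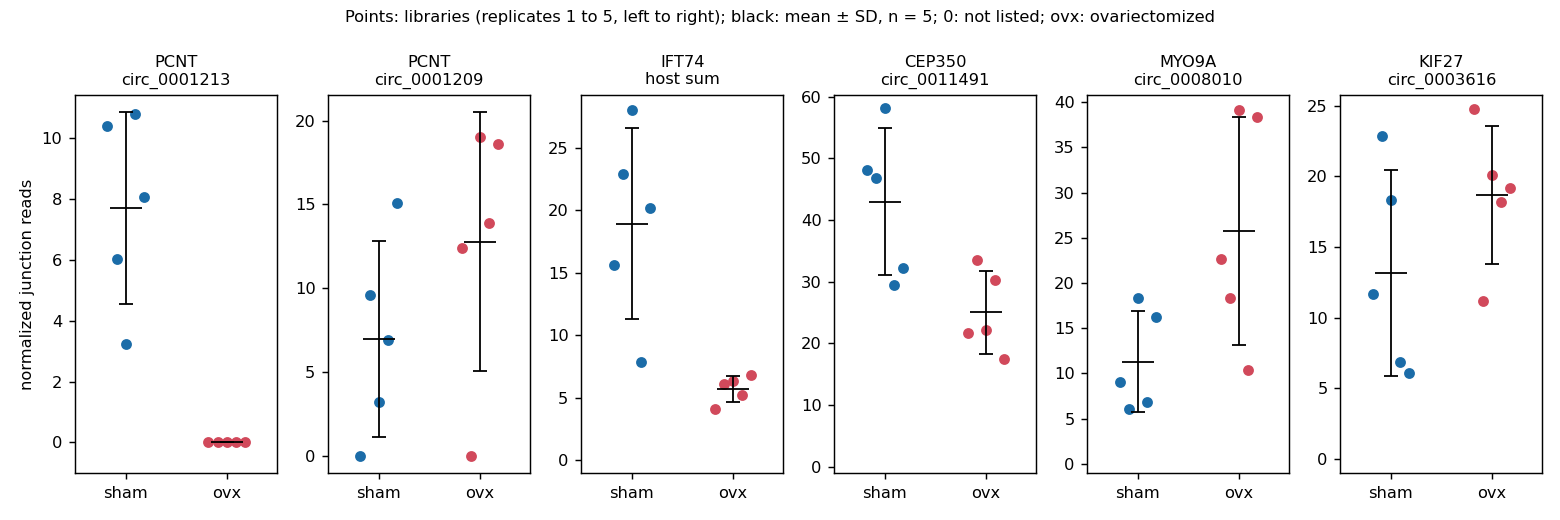
Normalized junction reads (y axis, linear, own scale in each panel) in the 5 sham (blue) and 5 ovariectomized (red) libraries, with mean and SD in black, for 5 circRNAs and the summed circRNAs of IFT74. The groups are apart for PCNT novel_circ_0001213 (3.23 to 10.8 against 0) and for the IFT74 sum (7.87 to 28.0 against 4.13 to 6.82) and overlap in the other panels.

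The authors' deposited table listed 6 of the 279 circRNAs at a p under 0.05, beside 118 of 8721 in all (1.35%), 2 of them higher and 4 lower after ovariectomy. They were PCNT novel_circ_0001213, IFT74 novel_circ_0004069, CEP350 novel_circ_0011491 and CLASP2 novel_circ_0014711 as lower, and MYO9A novel_circ_0008010 and KIF21A novel_circ_0004501 as higher. In the authors' deposited table the lowest adjusted p of the 279 was 0.128.

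The files also give non-junction reads for each circRNA, taken here as reads at its ends that do not cross the junction. Junction reads as a share of both kinds do not depend on library scaling. The share was computed for the 25 members listed in all libraries. It was highest for CEP70 novel_circ_0001000 (73.4% over 10 libraries), CEP128 novel_circ_0008709 (63.6%) and CCDC66 novel_circ_0014528 (43.0%). It was lowest for PCM1 novel_circ_0016733 (4.25%), DYNC1H1 novel_circ_0014263 (4.36%) and CEP120 novel_circ_0006780 (5.65%). The 2 CEP120 circRNAs with a common upstream end thus stood at 5.65% and, for the longer, 19.8%. The median over the 25 was 12.7%, against 10.9% for the other circRNAs listed in all libraries.

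None of the 25 shares passed the two-sided exact permutation test after adjustment (lowest adjusted p 0.426; 0.0% of 806 circRNAs called), and 2 had an unadjusted p under 0.05 (8.81% of all). Of these, CEP350 novel_circ_0011491 was lower in both measures and passed the adjusted test in neither. Both measures use the same junction reads, so they are not independent of each other. Its share was 11.2% ± 1.55 in sham and 7.96% ± 1.5 in ovariectomized libraries (exact permutation p = 0.00794, adjusted p = 0.426). For KIF27 novel_circ_0003616 the share was 16.7% ± 7.59 and 26.9% ± 5.41 (exact permutation p = 0.0476, adjusted p = 0.541). MYO9A novel_circ_0008010 was at 6.63% ± 3.58 and 14.6% ± 9.31 (exact permutation p = 0.0794, adjusted p = 0.566). The mean was higher after ovariectomy for 21 of the 25, as for 589 of all 806.

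**Figure D5:**
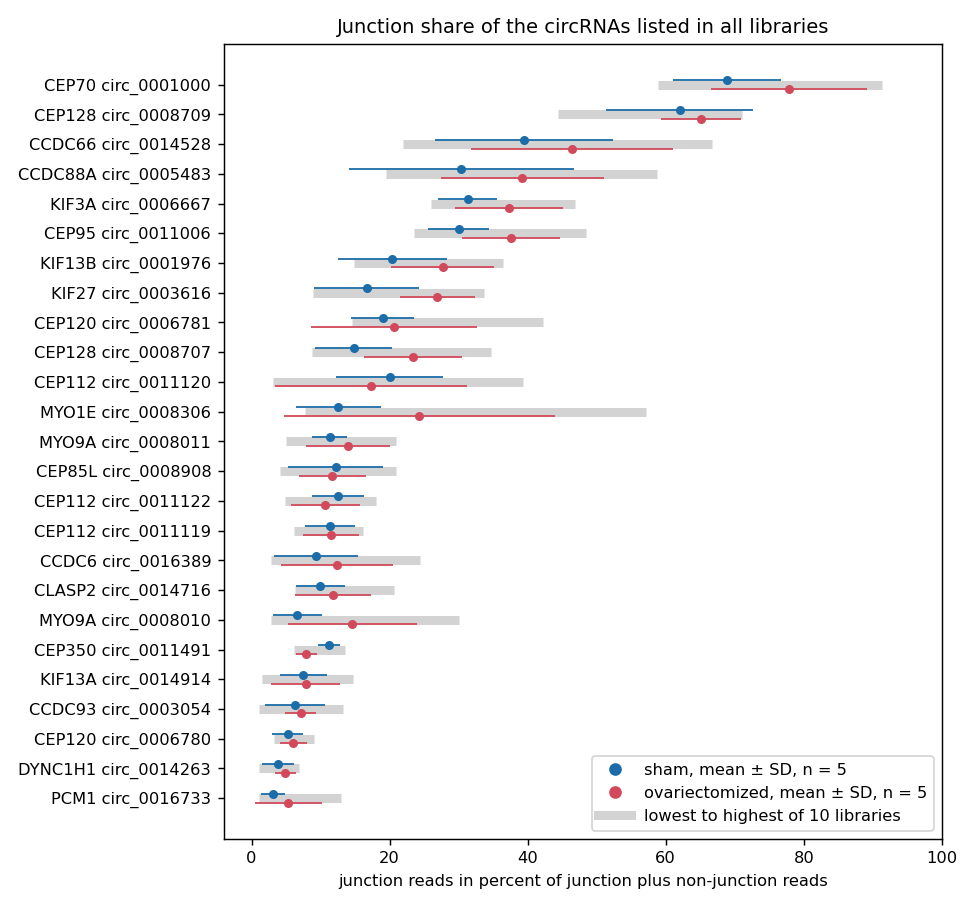
Junction reads in percent of junction plus non-junction reads (x axis) for the 25 circRNAs listed in all 10 libraries; blue and red points with bars are group means ± SD (n = 5 each) and gray bars run from the lowest to the highest library. Shares run from about 4% for PCM1 to 73.4% for CEP70, and CEP350 novel_circ_0011491 is 1 of 4 with the lower mean after ovariectomy.

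Other genes of the same pathways, 109 in a list that leaves out the families above, gave 129 circRNAs from 48 hosts. Of the 11 hosts tested, 9 had higher and 2 lower estimates after ovariectomy, and none was called. Their median was 0.43 on the log2 scale, beside -0.05 over all hosts tested, of which 349 were higher and 402 lower. With at least 2 reads in at least 5 libraries the list's median was 0.25 over 24 hosts. With no filter beyond 1 read it was 0.12 over 48 hosts, and leaving out each library gave 0.2 to 0.71. A shift of the list as a whole was not tested. CSPP1, a centrosome and cilium protein, was the only one with an unadjusted p under 0.05, at 33.1 ± 18.2 and 57.8 ± 20.3 normalized reads (log2 fold change 1.05 ± 0.38, limma voom, Benjamini-Hochberg adjusted p = 0.672). The kinesin light chain KLC1 had the most reads of the list (1058) and an estimate of -0.43 ± 0.24. KIFAP3, which links KIF3A and KIF3B to cargo, was at 0.17 ± 0.27, the ciliogenesis kinase TTBK2 at 0.63 ± 0.35 and the microtubule minus-end protein CAMSAP1 at 0.34 ± 0.35.

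Marker genes of muscle and other cells varied beside these results. The summed reads of the muscle fiber markers ran from 1678 to 2396 normalized reads in sham and from 1087 to 1915 in ovariectomized libraries, and MET was at 69.9 ± 17.6 and 110.2 ± 27.3. Endothelial markers (6 of 10 hosting) ran from 15.6 to 33.3 and from 14.7 to 27.9, and smooth muscle and pericyte markers (3 of 9) from 36.6 to 75.8 and from 42.2 to 76.3. Fibroblast markers (3 of 10) ran from 42.4 to 69.0 and from 29.5 to 113. Adipocyte markers (2 of 8) reached at most 10.8, immune markers (1 of 10) at most 5.39, and none of 8 Schwann cell markers hosted a circRNA. The part of cell composition in the values above was not tested.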

How the data were processed

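The kit kept strand, per the labels' protocols, and the submitters' processing notes name HISAT2. The circRNA caller was not given in the sources used here, nor were build or annotation. The deposited table packs whole-number counts of junction and non-junction reads into lists with sample names, and 10 further sample names were not used. A second deposited table holds group means of the authors' normalized signal. Per the file headers it also holds their log2 fold change, sham divided by ovariectomized (its sign was turned here). Raw and adjusted p-values by the authors stand beside it.

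Groups came from the sample titles. Members were found by host symbol, and all 279 matched the ARS-UI_Ramb_v3.0 gene table by gene ID, which gave the chromosome numbers. Members and gene lists were chosen with earlier results of these data known. A pathway gene outside those named in the text is not reported here. The named circRNAs are the 10 with the most reads, the 5 smallest p in each direction, the leader of each family, circRNAs without overlap between groups, and hosts and shares at the ends of their order. Other circRNAs of the same hosts, and those under the filter with a small exact p, were named after their values were seen.

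Counts were unpacked and fitted with limma voom (limma 3.58.1, R 4.3.3, statmod 1.5.0), with group alone in the model and robust empirical Bayes. Scaling was by trimmed mean of M values, cutting 30% of log ratios and 5% of abundances from both ends. The filter asked for 10 reads, scaled to the median library, in 5 or more libraries and for 15 reads in total. All rows of the table were fitted and adjusted together. Exact permutation tests used Python 3.11.15 with numpy 2.4.6 and pandas 2.3.3. The functions were tested on simulated counts. Alternatives covered scaling, filter, variance model, threshold, replicate block, membership and leaving out each library.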

Additional observations from a re-analysis of the deposited data

Results flagged for a closer look

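Of 70 groups of 5 libraries checked for a single library far from the other 4, 6 were picked out. The test picks out about 1 in 20 groups by chance where values are normally spread, and a group listed in 1 library is picked out by construction. In sham replicate 1, CEP70 novel_circ_0001000 had 138 normalized junction reads, beside 73.8 to 91.9 in the other sham libraries. In ovariectomized replicate 1, CEP95 novel_circ_0011006 had 67.2, beside 29.7 to 37.0. In the same library IFT74 novel_circ_0004069 was at 0, beside 5.2 to 6.82. The summed circRNAs of MYO1E stood at 28.0 in sham replicate 3, beside 6.51 to 10.8. CKAP5 novel_circ_0012961 and DNAH11 novel_circ_0006055 each had 2.41 in sham replicate 2 and were not listed in the other 4 sham libraries.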

How the results depend on the processing

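The count of these circRNAs called rose from 0 to 1, PCNT novel_circ_0001213, with at least 2 reads in at least 5 libraries and with no filter beyond 1 read, and was 0 under every other alternative run; hosts, circRNAs and hosts under the filter, and shares stayed at 0 calls. Of 304 alternative values of 16 followed fold changes, 3 had the other sign: CEP112 novel_circ_0011104 at -0.28 without sham replicate 5 (-0.28 to 1.45 over the libraries left out) and -0.16 with the replicate block, and CEP85L novel_circ_0008910 at 0.17 with the block. The lowest adjusted p among these values was 0.512. Scaling by library totals alone moved the median log2 fold change from -0.04 to 0.14 over all circRNAs and from -0.1 to 0.14 over the 29, of which 18 were then higher and 11 lower. Without ovariectomized replicate 5 the split was 16 higher and 13 lower. Without the SENP6 circRNA the difference in the members' share of junction reads, 0.19 percentage points, was -0.02, and leaving out each library gave 0.14 to 0.28. After each circRNA's group mean was subtracted from the log2 values, same-numbered libraries correlated at -0.116 to 0.189 over the 738 circRNAs tested. By this measure, 1 of 5 sham and 2 of 5 ovariectomized libraries correlated best with their own number. These values do not settle whether same-numbered libraries were paired or handled together, and the sample titles give only a number. The replicate block left 0 of these circRNAs and 0 of their hosts called, while 3 of all 738 circRNAs were called with it. Of the 29, 2 then had an unadjusted limma voom p under 0.05, and the lowest Benjamini-Hochberg adjusted p was 0.512. Counts of a few reads per library, and no listed count under 2, limit what could be detected for most of the 279.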

Other observations

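Among the pathway genes outside the name rule, TBC1D32, which is needed for ciliary Hedgehog signaling, lay under the filter and was picked out after its values were seen. Its 7 circRNAs summed to a mean of 2.26 ± 2.13 normalized reads after sham surgery and 12.8 ± 7.5 after ovariectomy (SD, n = 5 each). The sham libraries ran from 0 to 4.31 and the ovariectomized ones from 5.17 to 24.2, so the groups did not overlap. No test is given for it, and higher values without overlap were found in 0.503% of all hosts with reads in at least 5 libraries. The ovariectomized libraries alone met that rule for TBC1D32, so its lack of overlap is given as a description and not as evidence of a difference. Of the genes of that list in the host fit, HOOK3 was at 0.55 ± 0.49, DST at 0.54 ± 0.44 and NIN at 0.43 ± 0.6, and none of these passed the test. CENPJ, a centriole assembly factor, was at -0.64 ± 0.49.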
